A study of Caenorhabditis elegans with 4 samples.

Results

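The regions described here are the combined LIN-39 peaks that recurred in the list of at least 1 replicate. They are peaks of the series' combined list on chromosomes I, II, III, IV, V or X. Each overlapped a peak of replicate 1, replicate 2 or both by at least 1 bp. They were chosen by the positions of listed peaks, and thus by the q-values that placed a peak in each list. They numbered 233 of the 1874 combined peaks (12.4%, Wilson 95% interval 11 to 14%), and the other 1641 peaks were found in neither replicate list. The assay was ChIP-seq, sequencing of the DNA that is precipitated with a protein, in L2 (second larval stage) hermaphrodites of Caenorhabditis elegans. The series held 2 ChIP samples, precipitated with antibodies to GFP, and 2 input DNA samples, of which no values were used here. All samples were of strain OP18, grown at 20 °C, with the unc-119(ed3) mutation and the transgene wgIs18, which carries unc-119(+) and lin-39 fused to TY1, EGFP and 3xFLAG. Per the labels, this transgene was introduced by bombardment and the strain was outcrossed 3 times. The labels name no mutation of the resident lin-39 gene, and no strain without the tag was analysed here. Whole larvae were used, so a peak does not show in which cells LIN-39 was bound.

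LIN-39 is a Hox protein, a homeodomain transcription factor of the mid-body. It is needed for the vulval precursor cells, which it keeps from fusing with the epidermis and later helps to specify, for the migration of certain neuroblasts and for the fates of mid-body motor neurons. Hox proteins bind short AT-rich sites and often act with partner homeodomain proteins, of which CEH-20, the worm homologue of Pbx, is the best known for LIN-39. A region listed in the combined data and again in a replicate is one for which 1 library alone met the authors' threshold. A region listed in the combined data alone is not thereby shown to be unbound, because the lists hold only peaks that passed.

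Each peak has a q-value, a p-value adjusted for multiple testing, and its negative decimal logarithm is called the score below. The score ranks the evidence for a peak and is not a measure of the amount of bound protein. Coordinates refer to build WS220 of WormBase. No genome or annotation of that build was used, so no sequence is shown and no gene is assigned to a peak. The lists give no read counts, so depth is unknown. Membership rests on the peaks and thresholds of all 3 lists. Scores and widths of recurring peaks are therefore descriptions, and no p-value is given for them. Shares are given with Wilson 95% intervals and differences of shares with Newcombe 95% intervals. Differences summed over bins of rank have 95% intervals of the Greenland-Robins type, from a normal approximation. A bin in which all or none of a group's peaks recurred adds nothing for that group to such an interval. All these intervals cover counting error only and treat neighbouring peaks as independent.

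Of the 233 recurring peaks, 59 were listed in both replicates (3.15% of all combined peaks), 152 in replicate 1 only and 22 in replicate 2 only. Replicate 1 thus accounted for 211 of them (11.3% of all combined peaks) and replicate 2 for 81 (4.32%). With only q-values below 1e-04 kept in all lists, 94 peaks recurred. The replicate 1 list was the longer, with 239 peaks against 83. The recurring peaks covered 141726 bp, or 26.1% of all bases in combined peaks. They ranked from 1 to 1519 by q-value in the combined list, with a median rank of 146.

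The peaks found in both replicates had the highest scores. Their combined scores ran from 6.25 to 165 with a median of 14.2, against 3.27 to 16.2 with a median of 6.44 for replicate 1 only. Those in replicate 2 only had scores from 3.86 to 11.4 (median 6.93), and those in neither from 3.00 to 12.9 (median 3.81). The ranges of all 4 classes overlapped. The median recurring peak was 381 bp wide (quartiles 274 and 551 bp), and 3 of them were under 50 bp, against 310 of the 1641 peaks in neither.

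**Figure D1:**
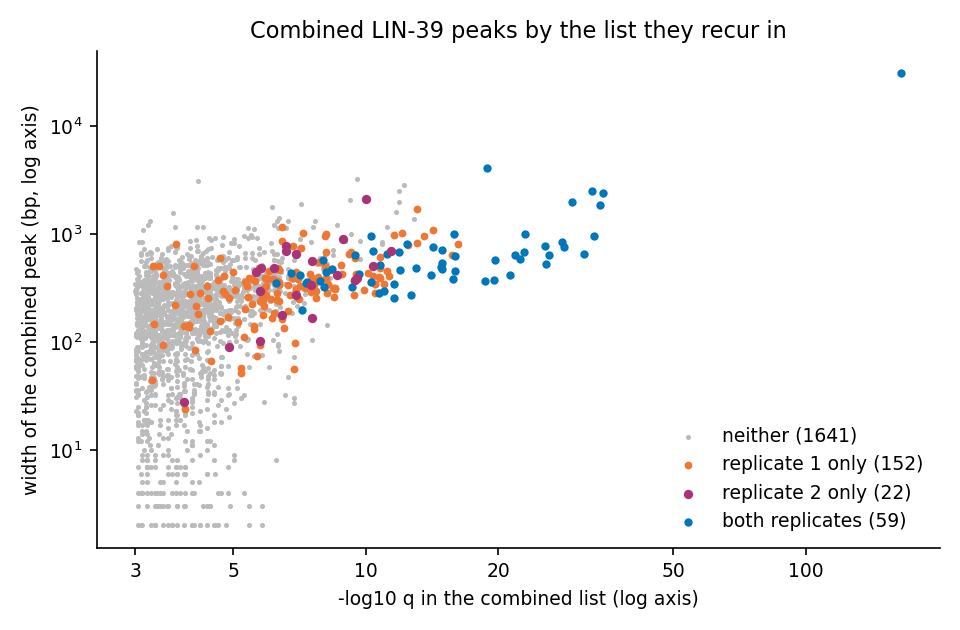
Each point is a combined peak, with its score, the -log10 q in the combined list, on the horizontal log axis and its width in bp on the vertical log axis, coloured by the replicate lists that held it. The 59 peaks found in both replicates lie at scores of 6.25 and above, while the 1641 peaks in neither reach 12.9 and make up nearly all the narrow peaks.

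The strongest members on each chromosome showed how differently the lists could score a region. The interval III:7518972-7549765 ranked first in all lists, with q = 1.73e-165 combined, 9.49e-47 for replicate 1 and 3.75e-24 for replicate 2. Of the same chromosome, III:8873985-8874667 had q = 1.35e-23 combined, 9.51e-09 in replicate 1 and 6.23e-10 in replicate 2, so that here the second replicate scored higher. The tagged gene lin-39, the Hox genes ceh-13, mab-5 and egl-5, and the marker gene unc-119 are on chromosome III in the RefSeq gene table. Where these peaks lie relative to those genes was not determined.

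On chromosome X, X:13700438-13701091 ranked 6 in the combined list (q = 4.49e-32), 4 in replicate 1 (q = 1.33e-17) and 3 in replicate 2 (q = 5.68e-12). The other leading X region, X:16929333-16931827, was less even, with ranks of 5 (q = 2.01e-33), 13 (q = 3.65e-13) and 15 (q = 2.64e-07). The replicate ranks are those of its strongest peak in each replicate, and these peaks did not overlap each other. On chromosome IV, IV:14032486-14034462 ranked 7, 11 and 2, with q = 4.07e-30, 2.39e-15 and 3.53e-12. There IV:13695535-13696372 followed with ranks of 9, 5 and 11 and q = 1.17e-28, 4.92e-17 and 1.73e-09. These 4 regions kept a rank of 15 or better in every list.

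Chromosome V had V:4506679-4508544, with ranks of 3, 7 and 4 and q = 1.07e-34, 7.50e-17 and 1.48e-11. Its next member, V:9219008-9219540, ranked 29, 27 and 20, with q = 1.33e-15, 2.85e-07 and 8.92e-06. Chromosome II had the lowest top score of all chromosomes listed. Its leading member, II:5543341-5544348, ranked 25, 17 and 29, with q = 1.34e-16, 3.72e-09 and 1.84e-05, and II:6707475-6707819 ranked 51, 31 and 18, with q = 2.49e-12, 5.71e-07 and 8.49e-06.

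The leading members of chromosome I differed from each other. The region I:9962174-9963137 ranked 4, 9 and 5, with q = 9.08e-34, 7.55e-16 and 1.66e-11. In contrast, I:1836207-1838613 was second in the combined list with q = 2.74e-35, but only 44 in replicate 1 (q = 6.27e-06) and 25 in replicate 2 (q = 1.20e-05). Its score of 34.6 in the combined list stood against 5.20 and 4.92 in the replicates.

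The score of a member in the combined list was compared with its score in each replicate, as a ratio. A replicate peak had to pass the authors' filter, so a member with a high combined score has room for a high ratio. Over the 211 peaks found in replicate 1 the combined score was a median of 1.86 times the replicate's (interquartile range 1.52 to 2.32), and over the 81 found in replicate 2 it was 2.50 times (2.21 to 3.19). Of the 211 peaks, 2 scored lower in the combined list than in replicate 1, II:11637017-11637522 and II:6812497-6812717, and none of the 81 did so against replicate 2. Chromosomes I and III had the highest medians against replicate 1, where the median ratio was 2.40 on I (69 peaks, 2.03 to 2.86) and 2.58 on III (10 peaks, 2.11 to 3.06). It was 1.59 on II, 1.66 on IV, 1.74 on V and 1.70 on X, or 1.64 over those 4 chromosomes together (132 peaks, 1.37 to 1.94). These values are not matched on score: the median combined score of recurring peaks was 9.47 on I and 11.0 on III against 6.29 to 6.93 on the other 4.

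Within windows of combined rank the ratio was therefore given again, after the unmatched values were seen. Against replicate 1, the 37 peaks of chromosome I among ranks 1 to 100 had a median of 2.85 (quartiles 2.45 and 3.09). The 8 of chromosome III had 2.88 (2.28 and 3.22), while 33 from the other 4 chromosomes had 1.86 (1.66 and 2.11). Among ranks 101 to 400 it was 2.06 on I (31 peaks, 1.82 to 2.26) and 1.76 on those 4 (66 peaks, 1.51 to 1.95), so the quartiles overlapped there. Against replicate 2, ranks 1 to 100 gave 3.25 on I (19 peaks), 2.72 on III (10 peaks) and 2.74 on the other 4 (26 peaks, 2.40 to 3.18). Against replicate 2, matching at ranks 1 to 100 thus narrowed the gap of chromosome I and left III level with the others. All 19 replicate 2 peaks of I were at those ranks, so only the median of the other 4 chromosomes moved. Against replicate 1, the gaps of I and III remained at ranks 1 to 100, and that of I was smaller at ranks 101 to 400.

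Without matching, chromosome I had a median ratio against replicate 2 of 3.25 (19 peaks, 2.96 to 3.90) against 2.27 on II, IV, V and X (52 peaks, 1.98 to 2.73). On chromosome III the median was 2.72 (10 peaks, 2.46 to 3.77), and its quartiles overlapped those of the 4 other chromosomes. Recurring peaks of chromosome X had a median of 2.50 there. The single highest ratio against replicate 1, 6.64, was that of I:1836207-1838613.

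**Figure D2:**
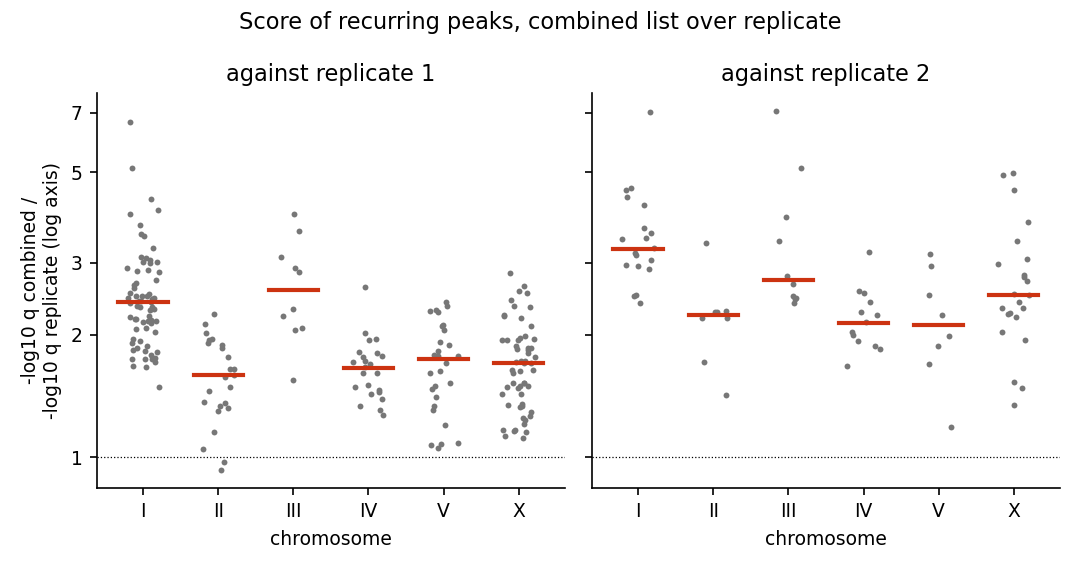
For each recurring peak, the -log10 q in the combined list is divided by that of its strongest partner in replicate 1 or replicate 2 and plotted by chromosome on a log axis, with a red line at the median. Ratios are not matched on score, and the medians of chromosome I are 2.40 against replicate 1 and 3.25 against replicate 2.

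Whether the replicates placed a region at the same position was asked next. Each replicate peak that met the combined list overlapped exactly 1 combined peak, 213 from replicate 1 and 82 from replicate 2. A further 26 of the 239 replicate 1 peaks, with a median width of 28.5 bp, met no combined peak. In replicate 2 this held for 1 of 83 peaks. Replicate peaks mostly lay within the combined peak: 180 of the 213 (84.5%) from replicate 1 and 63 of the 82 (76.8%) from replicate 2 did so entirely. Midpoints were a median of 17.5 bp apart in replicate 1 (interquartile range 7 to 35.5) and 16.2 bp in replicate 2 (6 to 34.5). They lay within 50 bp of each other for 177 pairs (83.1%) and 67 pairs (81.7%). Neither replicate was displaced to one side, since midpoints lay to the right of the combined midpoint in 98 pairs and to the left in 112 for replicate 1, and in 40 and 42 for replicate 2.

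**Figure D3:**
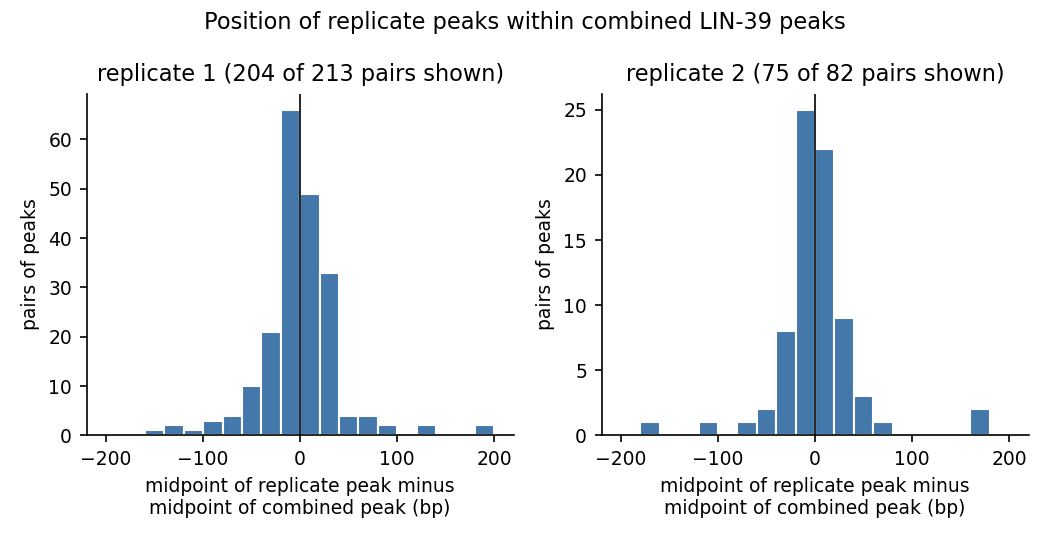
The histograms give the distance in bp from the midpoint of the combined peak to the midpoint of the replicate peak, for pairs within 200 bp. Both are centred near 0, and 177 of 213 pairs in replicate 1 and 67 of 82 in replicate 2 lie within 50 bp.

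Replicate peaks together covered a median of 88.2% of the bases of a recurring combined peak. Of the 233, 96 were covered by at least 90% and 19 by less than 50%. Overlaps under 50 bp were found in 8 pairs with replicate 1 and 2 pairs with replicate 2, so few memberships lay near the limit of 1 bp. The smallest overlaps were those of V:20776575-20776598 (2 bp), X:8951845-8951937 (5 bp), IV:8492982-8493238 (6 bp), X:6689111-6689274 (12 bp) and II:3848600-3848684 (14 bp). All 5 were found in replicate 1 only, and their combined q-values ran from 3.62e-07 to 0.00034.

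On the other side of that limit, the peaks in neither list with the smallest gap to a replicate peak were I:9472587-9472636 (58 bp away), I:9375218-9375588 (234 bp), I:14809895-14810281 (305 bp), I:1654612-1655277 (306 bp) and V:1228187-1228515 (344 bp). In all, 51 of the 1641 peaks in neither lay within 2000 bp of a replicate peak. The nearest of them therefore missed an overlap by 58 bp.

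The 59 peaks found in both replicates allowed the replicates to be compared directly, although the rule did not ask that their own peaks meet. In all 59 a replicate 1 peak and a replicate 2 peak overlapped each other. Their midpoints were a median of 20.0 bp apart (interquartile range 9.50 to 51), and 42 of the 59 pairs lay within 50 bp. The largest distance, 3679 bp, was that of the wide chromosome III interval, where the replicate 2 peak of 16156 bp lay inside the 30768 bp peak of replicate 1. Peak widths were alike, with 31 wider in replicate 1, 28 wider in replicate 2 and a median ratio of 1. At X:16929333-16931827, which held 2 peaks of each replicate, the strongest peaks of the 2 lists did not overlap each other. Its midpoint distance is that of an overlapping pair, while its widths and scores are those of the strongest peaks.

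Scores were higher in replicate 1 for 46 of the 59 and higher in replicate 2 for 13. The median score was 5.40 in replicate 1 and 4.48 in replicate 2, and the median ratio of replicate 1 to replicate 2 was 1.19 (range 0.621 to 3.66). Replicate 1 was higher for 11 of 15 peaks on chromosome I, 6 of 6 on II, 5 of 7 on III, 7 of 8 on IV, 3 of 5 on V and 14 of 18 on X. The lowest ratio, 0.621, belonged to I:7518264-7518883, with a score of 3.13 in replicate 1 and 5.04 in replicate 2. Higher scores in replicate 1 were thus found on every chromosome for more than 50% of these peaks.

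**Figure D4:**
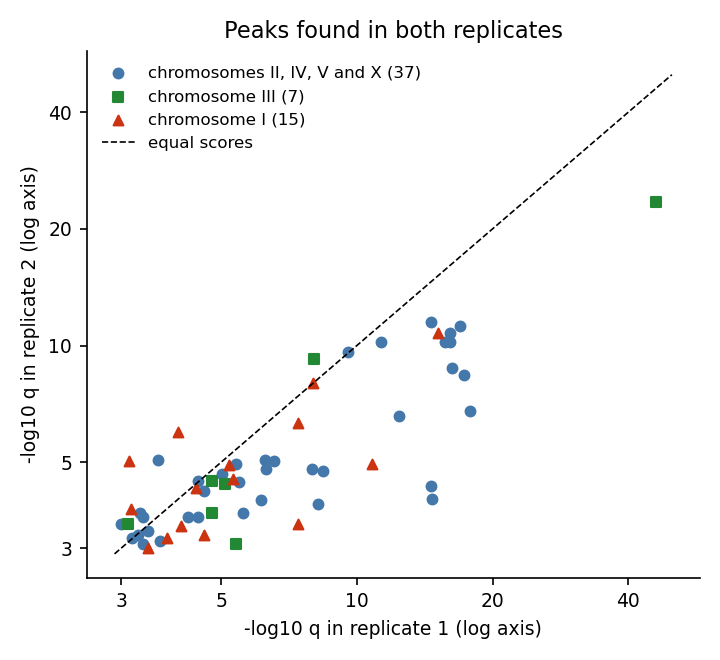
Each point is 1 of the 59 combined peaks found in both replicates, with the -log10 q of its strongest replicate 1 peak on the horizontal log axis and of its strongest replicate 2 peak on the vertical log axis, and the dashed line marks equal scores. Of the 59 points, 46 lie below the line, and the wide chromosome III interval stands alone at 46.0 and 23.4.

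Regions were also ordered by how many replicate peaks they held. The combined peak X:16929333-16931827 spanned 2 peaks of each replicate, and V:4506679-4508544 spanned 2 peaks of replicate 1 and 1 of replicate 2. The next in order, III:7518972-7549765, held 1 of each, as did the other 56 peaks found in both. Separate replicate peaks were therefore joined into 1 combined peak at 2 places.

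The strongest peaks of the combined list that only replicate 1 contained were on chromosome I. The 5 with the smallest combined q-values were I:5312815-5313614 (q = 6.50e-17 combined and 5.74e-06 in replicate 1), I:9373044-9373675 (1.84e-16 and 0.000106), I:5315912-5317011 (6.78e-15 and 9.62e-05), I:7474820-7475785 (2.40e-14 and 0.000687) and I:1873637-1874465 (8.74e-14 and 0.000571). In replicate 1 they ranked 43, 89, 86, 196 and 186 of 239. In the combined list they ranked from 22 to 36 of 1874, where they were chosen for their small q-values. Chromosome I held 20 of the 30 combined peaks at ranks 21 to 50. It had 54 of the 152 peaks of this class and 785 of all 1874 combined peaks. In replicate 1 the 152 peaks of this class had a median score of 3.56, against 5.40 for the 59 found in both.

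Peaks found in replicate 2 only were led by III:4281928-4282628 (q = 3.96e-12 combined and 2.13e-05 in replicate 2), I:12815732-12816237 (4.12e-11 and 0.000949), I:1833851-1835952 (9.11e-11 and 0.000343), I:4224801-4225190 (2.67e-10 and 0.000899) and III:10758978-10759350 (3.42e-10 and 0.000277). They ranked from 53 to 87 in the combined list. The replicate 2 peak of I:1833851-1835952 covered 25.5% of it, whereas in the other 4 the replicate peak covered 89.9 to 97.1%. Absence from replicate 1 means only that no peak passed there.

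The weakest members were V:5748504-5748547 (combined q = 0.000543), II:11637017-11637522 (0.000526), V:13017991-13018137 (0.000485), X:1093123-1093623 (0.0004) and II:6992931-6993344 (0.000345). All were in replicate 1 only, with q-values there between 0.000299 and 0.000998. None was on chromosome I or III.

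The members were then compared with the other peaks by chromosome. The rule used the chromosome only to match positions and to keep I to V and X, and it favoured none of them. Chromosome X carried 62 of the 233 recurring peaks (26.6%, 21.3 to 32.6%) against 252 of the 1641 in neither (15.4%, 13.7 to 17.2%), a difference of 11.3 percentage points (Newcombe interval 5.68 to 17.5). Chromosome I carried 73 recurring peaks (31.3%, 25.7 to 37.5%) and 712 of those in neither (43.4%, 41.0 to 45.8%), a difference of -12.1 points (-18.2 to -5.40), or -19.3 points (-27.5 to -8.72) where replicate 2 alone defined recurrence and -23.4 points (-31.7 to -13.2) where only q-values below 1e-04 were kept. Recurring peaks thus had a larger share of X and a smaller share of I than the rest of the list. For II, III, IV and V the intervals of the difference included 0, with 26, 13, 28 and 31 recurring peaks. Per Mb of span, the largest coordinate on each chromosome in the lists, recurring peaks numbered 4.87 on I, 3.51 on X, 1.70 on II, 1.60 on IV, 1.48 on V and 0.943 on III. Peaks in neither numbered 47.5 per Mb on I, 14.3 on X and at most 11.2 on each other chromosome. Of the combined peaks on each chromosome, 9.3% recurred on I, 19.7% on X, 13.5% on II, 14.4% on IV, 14.2% on V and 7.74% on III. The high density of recurring peaks on I thus went with a dense list, not with a high recurring share.

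Because peaks with a small q-value recur more often, chromosomes were also compared among peaks of like rank. Of the 100 strongest combined peaks, all 44 outside chromosome I recurred (92.0 to 100%), and 41 of 56 on chromosome I did (73.2%, 60.4 to 83.0%). At ranks 101 to 200 the counts were 40 of 50 outside I (80.0%, 67.0 to 88.8%) and 18 of 50 on it (36.0%, 24.1 to 49.9%). At ranks 201 to 400 they were 41 of 101 (40.6%) and 13 of 99 (13.1%). Beyond rank 412 no peak of chromosome I recurred, among 574 listed there. Recurrence was also rare outside I at such ranks. It was 15 of 178 peaks (8.43%) at ranks 401 to 700, 9 of 172 (5.23%) at ranks 701 to 1000 and 11 of 544 (2.02%) from rank 1001. Summed over 8 bins of rank as a Mantel-Haenszel difference, a weighted mean over bins, recurrence on I minus that elsewhere was -9.72 points (-11.7 to -7.72). It was -7.99 (-10.0 to -5.95) for replicate 1 and -4.60 (-5.88 to -3.33) for replicate 2, so the direction was shared by both replicates.

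**Figure D5:**
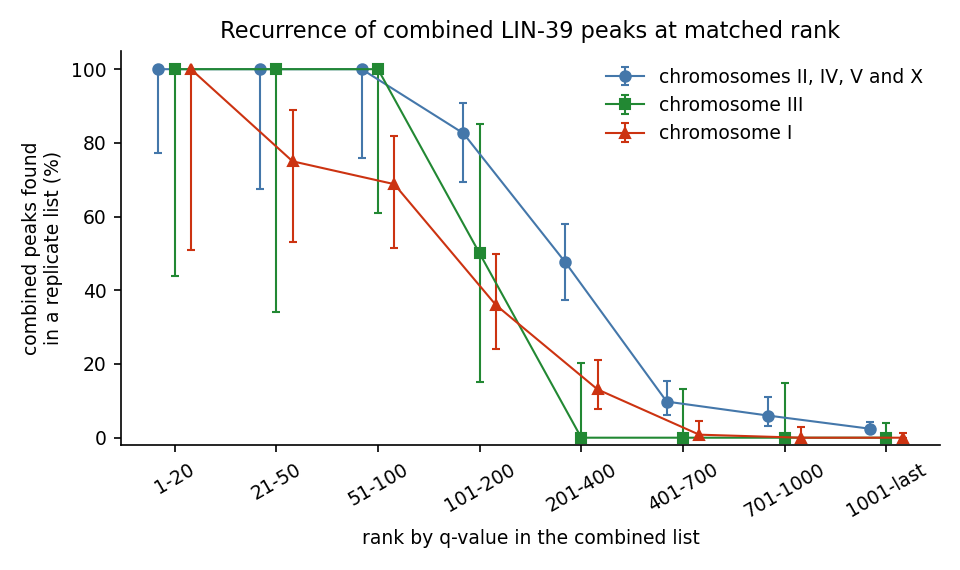
The share of combined peaks found in at least 1 replicate list is plotted in bins of rank by combined q-value for chromosome I, chromosome III and the other 4 chromosomes together, with Wilson 95% intervals as bars. At ranks 201 to 400 the share was 13.1% on I and 0% on III against 47.7% on II, IV, V and X.

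Chromosome III followed a course of its own, which was singled out after the counts were seen. Its 13 strongest peaks, down to rank 152, all recurred, and none of the 155 that followed did. At ranks 201 to 400, 0 of 15 peaks on III recurred (0 to 20.4%), against 41 of 86 on II, IV, V and X (47.7%, 37.4 to 58.1%). Over all ranks the matched difference between III and the other chromosomes outside I was -8.79 points (-10.8 to -6.79). For replicate 1 alone, III against II, IV, V and X gave -8.86 (-11.1 to -6.58). For replicate 2 alone it gave -1.02 (-2.45 to 0.396), an interval that includes 0. In most bins all or none of the peaks on III were found, so these 3 intervals understate its counting error. Between I and III the matched difference was -0.493 points (-2.16 to 1.18), a mean over bins that differed in direction. At ranks 1 to 100, 41 of 56 peaks on I recurred (73.2%) against 11 of 11 on III. At ranks 101 to 400 it was 31 of 149 (20.8%) against 2 of 19 (10.5%). At ranks 401 to 700 it was 1 of 122 against 0 of 25. The value does not show that I and III recurred alike at each rank.

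The other chromosomes mixed recurring and non-recurring peaks over a long range of ranks. On X the first peak in neither was at rank 104 and the last recurring one at rank 1381, and on V these ranks were 195 and 1519. On II they were 173 and 1508, and on IV 226 and 556. At ranks 101 to 400 the recurring share was 52.0% on II (13 of 25), 60.6% on IV (20 of 33), 71.4% on V (20 of 28) and 56.5% on X (26 of 46). Their Wilson intervals overlapped, and the matched difference between X and the other chromosomes outside I was 2.81 points (-0.688 to 6.31). That last interval includes 0. It belongs to a difference in recurrence, while the unmatched value for X compared its share of recurring peaks with its share of the others. With chromosome I left out, that unmatched value was 11.6 points (3.84 to 19.8). Because the measures are unlike, these values do not show what matching changed.

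In that same window of ranks 101 to 400, the replicates were also examined one at a time. Replicate 1 held 31 of 149 peaks on I (20.8%) and 2 of 19 on III (10.5%), against 66 of 132 on II, IV, V and X (50.0%). Replicate 2 held 0 of 149 on I and 0 of 19 on III, against 24 of 132 on those 4 chromosomes (18.2%). The difference for I was -29.2 points (-39.4 to -18.1) in replicate 1 and -18.2 points (-25.6 to -12.0) in replicate 2. For III it was -39.5 (-50.8 to -17.0) and -18.2 (-25.6 to -0.441). In replicate 2 the direction on III turned in the window of ranks 1 to 100, with 10 of 11 peaks against 26 of 33 (12.1 points, -18.4 to 30.3), and over ranks 1 to 400 (3.03 points, -12.9 to 22.1).

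The strongest combined peaks that recurred in neither list were I:7711673-7713037 (q = 1.33e-13, rank 39), I:171068-173936 (q = 5.69e-13), I:2292720-2295243 (q = 1.27e-12), I:2238792-2240755 (q = 1.33e-12) and I:257485-259088 (q = 2.15e-12). They were wide, at 1365, 2869, 2524, 1964 and 1604 bp. Among the 56 peaks of chromosome I of rank 100 or better, the 15 in neither had a median width of 1202 bp and the 41 recurring ones 469 bp. Of those 15, 14 were wider than 800 bp, against 8 of the 41.

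Widths at like rank varied by chromosome. At ranks 101 to 400 the median width of recurring and other peaks was 342 and 119 bp on IV, 329 and 202 bp on V, and 384 and 267 bp on X. On III it was 344 and 349 bp, with only 2 recurring peaks, on II 390 and 414 bp, and on I 284 and 343 bp. At ranks 401 to 700 few peaks recurred. Recurring peaks were wider on II (3 peaks, 303 against 248 bp), IV (2 peaks, 317 against 158 bp) and X (8 peaks, 286 against 268 bp). They were narrower on V (2 peaks, 119 against 163 bp) and I (1 peak, 153 against 217 bp). Over all chromosomes the log2 ratio of median widths at matched rank was -0.11, and with chromosome I left out it was 0.30. Its direction also turned, to 0.12, when combined peaks over 800 bp were left out. A wider peak has more room for an overlap, so width is not independent of the rule.

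Position within the chromosomes was described last. C. elegans autosomes have gene-rich centres and arms with more repeats and more recombination. Of the 171 autosomal recurring peaks, 108 had their midpoint in the middle 50% of the span (63.2%, 55.7 to 70.0%), against 717 of 1389 in neither (51.6%, 49.0 to 54.2%). The difference was 11.5 points (3.65 to 18.9), and 4.17 points (-8.86 to 16.4) where replicate 2 alone defined recurrence. On chromosome I, 45 of 73 recurring peaks were central (61.6%, 50.2 to 71.9%) against 320 of 712 (44.9%, 41.3 to 48.6%), a difference of 16.7 points (4.66 to 27.6). On II, III, IV and V together the shares were 64.3% and 58.6%, with a difference of 5.64 points (-4.87 to 15.2). On X they were 50.0% and 52.8%, and the interval of the difference included 0 as well.

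Along chromosome I, the recurring share was 7.03% in the first 25% of the span (18 of 256 peaks, 4.49 to 10.8%), 12.3% in the middle 50% (45 of 365, 9.34 to 16.1%) and 6.10% in the last 25% (10 of 164, 3.35 to 10.9%). Of its 15 peaks among the 100 strongest that were in neither list, 11 lay in the first 25%, 4 in the middle and 0 in the last 25%. With rank matched, central peaks of I recurred more often by 4.13 points (1.28 to 6.99), and on II to V by 1.10 points (-2.11 to 4.31).

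Nearness to other combined peaks was counted as well. Another combined peak was within 2 kb for 60 of the 233 (25.8%, 20.6 to 31.7%) and for 346 of the 1641 in neither (21.1%, 19.2 to 23.1%), a difference of 4.67 points whose interval included 0 (-0.910 to 10.9). Outside chromosome I, where peaks were sparser, it was 29 of 160 (18.1%, 12.9 to 24.8%) against 101 of 929 (10.9%, 9.03 to 13%), a difference of 7.25 points (1.62 to 14.2). On chromosome I it was 31 of 73 against 245 of 712, a difference of 8.06 points with an interval that included 0 (-3.21 to 20.0). Another recurring peak was within 2 kb for 26 of the 233 (11.2%, 7.73 to 15.8%), and a recurring peak was that near for 50 of the 1641 in neither (3.05%, 2.32 to 3.99%). Neighbours share their surroundings and may be parts of 1 broader peak, so these counts are not independent.

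Joined at 2 kb, the recurring peaks fell into 220 regions, of which 173 held a single combined peak. Of the other 47, 13 held 2 recurring peaks each. In 8 regions both peaks present recurred, namely I:9962174-9964934, IV:13694644-13696372, I:5311597-5313614, II:6705658-6707819, I:434506-435845, X:17477395-17480524, X:6687458-6689274 and V:13016762-13018137. These 8 were listed after their values were seen. Their smallest combined q-values ran from 9.08e-34 to 5.56e-07.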

How the data were processed

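The 2 LIN-39 ChIP replicates each have a peak list, and 1 list belongs to the series. Per the file headers, the genome build was WormBase WS220, and the source column names PeakSeq as the caller. The authors deposited a p-value column. It was read as Benjamini-Hochberg q-values: with peaks sorted by number, the column fell at 886 of 1873 steps (combined), 73 of 238 (replicate 1) and 17 of 82 (replicate 2), which sorted p-values would not do, while their product with the peak number fell at 0 steps (relative tolerance 1e-09). The sources used here name no aligner, caller version, threshold, control or pooling of reads. Whether replicates were separate cultures is not stated.

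Peaks were ranked by q-value. Recurrence at matched rank was summarised as a Mantel-Haenszel difference over 8 rank bins, tested on simulated data. Those data had the same difference in every bin and larger shares in the last bins than the lists. The interval was thus not tested under shares like those found here. A median width ratio needed 5 peaks of each kind in a bin. Spans run to the largest listed coordinate. Tables were handled in pandas 2.3.3 and numpy 2.4.6 under Python 3.11.15, intervals came from scipy 1.17.1 and plots from matplotlib 3.10.9.

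The members, the comparisons and the alternatives were chosen with earlier results of these data known. The rule for named regions took the 5 strongest peaks of each class, the 2 strongest per chromosome, the 5 weakest, the 5 strongest in neither list, the 5 on each side of the overlap limit and the 3 holding most replicate peaks. Alternatives were other overlaps, a stricter q-value, narrow or wide peaks left out, each replicate left out and chromosome I left out.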

Additional observations from a re-analysis of the deposited data

How the results depend on the processing

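The count of 233 recurring peaks was 94 with q below 1e-04 in all lists, and ranged from 81 without replicate 1 to 211 without replicate 2. An overlap of at least 50% of both peaks gave 210, and 50% of the shorter peak gave 233. The median share of a combined peak covered, 88.2%, was 91.7% at the stricter q-value and 82.6 to 86.5% with a replicate left out. The chromosome I difference of -12.1 points was -23.4 at the stricter q-value and ran from -19.3 to -10.4 with a replicate left out. At matched rank the difference of -9.72 points ran from -7.99 to -4.60 with a replicate left out, and was -9.87 in bins of q-value. The central difference of 11.5 points ran from 4.17 without replicate 1 to 13.4 without replicate 2, and the interval included 0 without replicate 1 (-8.86 to 16.4), at the stricter q-value (-5.03 to 18.9) and with chromosome I left out. The difference in neighbours, 4.67 points, ran from 4.45 to 6.03 with a replicate left out, and its interval excluded 0 without replicate 2 (0.13 to 12.7) and with chromosome I left out. It was 1.96 at the stricter q-value and 2.45 without combined peaks over 800 bp. The log2 width ratio of -0.111 was -0.000954 with 50% of both peaks, -0.269 at the stricter q-value, -0.184 without peaks under 50 bp and -0.139 to -0.133 with a replicate left out. It turned to 0.297 with chromosome I left out and to 0.116 with combined peaks over 800 bp left out, a choice made after the data were seen. The cause of these moves was not tested. No paired analysis was possible because the values are peak lists of ChIP replicates with no read counts, and the input samples enter no comparison. With depth unknown, absence from a replicate list cannot be told apart from low coverage.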
